A study of Mus musculus with 17 samples.

Results

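The change in gene expression of *Nanog* KO ES cells over the first 24 h after leaving naïve culture was followed across the whole transcriptome. The 3 *Nanog* KO libraries of 24 h were compared with the 3 of 0 h, which are 6 of the 17 RNA-seq libraries of the series. A gene was included if it had at least 1 CPM (a read count of the gene scaled to a common library size) in at least 3 of the 17 libraries, and 15117 of the 15470 rows of the table met this. Every included gene was tested, whatever its function.

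The *Nanog* KO cells are the BT12 line, in which *Nanog* is knocked out, and the control cells are the E14Tg2a line from which BT12 was made. At 0 h both lines grew without serum in knockout serum replacement with LIF and 2i (the inhibitors CHIR-99021 and PD0325901) on inactivated mouse embryonic fibroblasts, which serve as feeder cells, and both were then changed to serum. Cells were collected at 0, 12 and 24 h, in 3 libraries per genotype and time, except that the control at 0 h has 2 here. The knockout is 1 line, so that a difference from the control belongs to this pair of lines, and the sources used here do not say whether feeder cells were still present in serum or whether replicates were separate cultures. The p-values measure the spread between these libraries, which may be technical.

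LIF signals through STAT3, PD0325901 blocks MEK and so the ERK pathway, and CHIR-99021 blocks GSK3 and so stabilises β-catenin. Together they hold ES cells in the naïve state of the preimplantation epiblast. When they are withdrawn, cells are known to lose naïve factors such as *Klf2* and *Prdm14*, to regain ERK activity and to gain genes of the postimplantation epiblast such as *Fgf5*, *Pou3f1* and *Dnmt3a*. *Nanog* encodes a homeodomain factor of the naïve network.

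The 6 libraries held 10876687 to 23922556 reads, so that 3 reads, taken as the floor of detection, correspond to 0.131 to 0.285 CPM. Reads were still counted over *Nanog* (chr6:122707489-122714633, plus strand, GRCm38) in the knockout, at 31.7, 34.6 and 32.1 CPM at 0 h and 14.6, 16.1 and 12.5 CPM at 24 h, against 412 and 411 CPM in the control at 0 h, and which part of the transcript they cover is not known. All 7 ES cell markers were measured in every library. They summed to 2725 to 2805 CPM at 0 h and 2949.6 to 3456 CPM at 24 h. Replicates were noisier at 24 h. For genes of at least 20 CPM the squared difference between replicates was 15.1 to 20.6 times that of counting alone at 24 h, and 2.62 to 7.11 times at 0 h. A single spread was used for all groups, so that errors at 24 h may be understated.

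After 24 h in serum, the *Nanog* KO line had 4359 genes (28.8%) that rose and 4452 (29.5%) that fell, so that 58.3% of the tested genes passed the test (limma on log2(CPM + 1), adjusted p under 0.05 by Benjamini-Hochberg over all 15117 genes). The changes were mostly small. The median log2 fold change of all genes was -0.0016, and 504 genes rose (3.33%) and 500 fell (3.31%) by 2-fold or more, 52 and 66 of them by a log2 fold change of at least 2. The 3 libraries at 24 h all lay above the 3 at 0 h for 4716 genes (31.2%) and all below them for 4869 (32.2%). The number with a 2-fold change depended on how low values were treated. It was 975 rising and 786 falling with 0.1 CPM added in place of 1 CPM, and 1053 and 803 with edgeR on the recovered reads. The changes were spread over the genome, since the 20 chromosomes with at least 100 tested genes had medians between -0.062 and 0.043. They were less even over transcript classes. Of 13765 protein-coding genes 28.5% rose and 31.2% fell, whereas of 275 lincRNAs 41.1% rose and 14.6% fell, and of 227 antisense genes 37.9% rose and 9.25% fell. Whether counting used strand is not given in the sources used here, so reads of an antisense gene and its partner cannot be told apart.

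**Figure D1:**
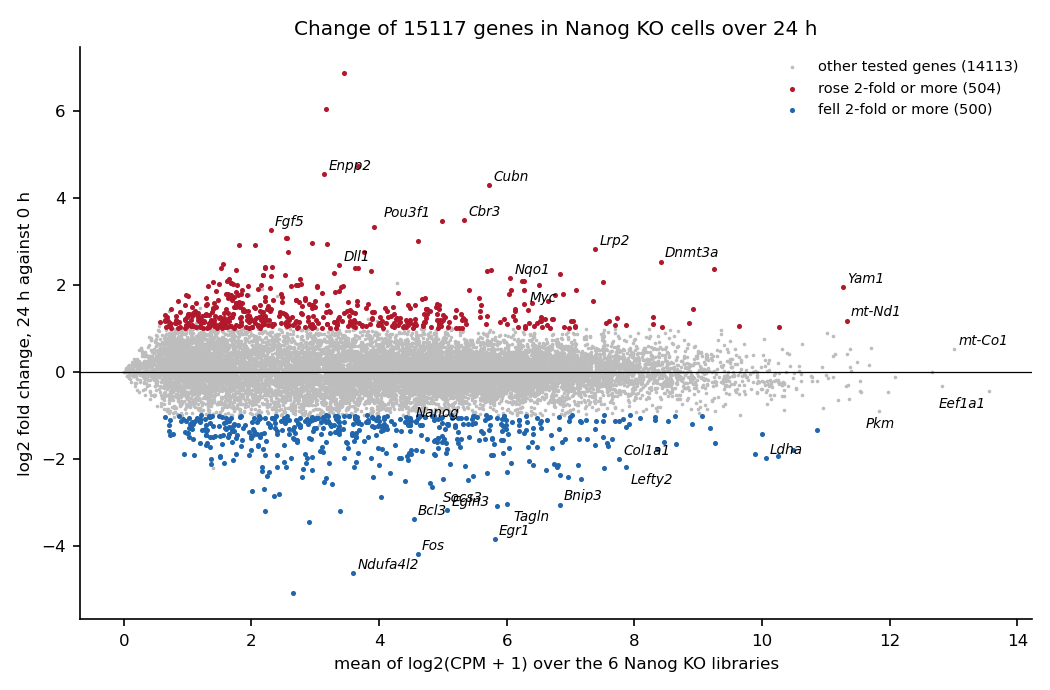
Each point is 1 of the 15117 tested genes, with its mean of log2(CPM + 1) over the 6 *Nanog* KO libraries on the horizontal axis and its log2 fold change at 24 h against 0 h on the vertical axis. The 504 genes that rose by 2-fold or more are red and the 500 that fell are blue, and *Cubn* at 4.29 and *Fos* at -4.18 lie near the upper and lower ends.

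Genes of the response to low oxygen and of glycolysis fell together. In low oxygen the factor HIF1 accumulates, binds the core letters ACGTG in promoters and enhancers, and turns on glucose uptake, glycolysis and a set of other genes, and the prolyl hydroxylases EGLN1 and EGLN3, which mark HIF for degradation, are themselves among its targets. All 24 tested genes of the list of hypoxia-induced genes outside glycolysis fell, with a median log2 fold change of -1.57. Of 23 genes of glycolysis, which include glucose and lactate transporters, 20 fell and 3 rose, with a median of -1.35. The share of all genes that fell is 29.5%.

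*Egln3* was at 106, 101 and 94 CPM in the libraries at 0 h and at 8.34, 12.5 and 9.86 CPM at 24 h, which is -3.19 ± 0.12 on the log2 scale (limma, adjusted p = 1.2e-13). *Bnip3*, which encodes a mitophagy receptor, went from 340.1, 323 and 321 CPM to 33.2, 43.7 and 39.4 CPM (-3.06 ± 0.086, adjusted p = 4.1e-15). The 2 groups were far apart for both genes, and the libraries within a group were close. Falls by a log2 fold change of more than 2 were also measured for *Adm* (-2.45 ± 0.17), which encodes the vasodilator peptide adrenomedullin, *Bhlhe40* (-2.37 ± 0.056), a transcriptional repressor, and *Egln1* (-2.34 ± 0.068). *Vegfa*, the angiogenic growth factor, fell from 69, 67.9 and 71.8 CPM to 20.2, 20.8 and 19.6 CPM. *Ndufa4l2*, a mitochondrial gene that hypoxia induces and that was not on the list, had the largest fall of any gene the naming rule allows, from 62, 59.1 and 56.5 CPM to 0.878, 1.51 and 2.09 CPM (-4.62 ± 0.16, adjusted p = 7.8e-14).

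Nearly every step of glycolysis was lower at 24 h. The glucose transporters *Slc2a1* and *Slc2a3* fell by a log2 fold change of 1.90 and 1.81, hexokinase *Hk2* by 1.67, and the phosphofructokinases *Pfkp* and *Pfkl* by 2.46 and 1.78. Among the later enzymes, *Aldoa* fell by 1.35, *Tpi1* by 1.65, *Pgk1* by 1.93, *Pkm* by 0.90 and lactate dehydrogenase *Ldha* by 1.99. *Ldha* was at 2174, 2132 and 2056 CPM at 0 h and at 552, 513 and 538 CPM at 24 h (adjusted p = 1.3e-15). The brain isoform of aldolase, *Aldoc*, fell most, from 45, 43.9 and 40.7 CPM to 4.83, 4.27 and 6.16 CPM (-2.87 ± 0.11). *Gapdh*, which is often used as a reference gene, fell by a log2 fold change of 0.49. The 3 members that rose are the muscle isoforms *Pfkm* (1.02 ± 0.09) and *Eno3* (1.01 ± 0.083) and the monocarboxylate transporter *Slc16a1* (0.30 ± 0.044). *Slc16a3*, a transporter of the same family, fell (-1.08 ± 0.11).

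The windows from 250 bases before to 50 bases after the start of transcription of genes in the hypoxia and glycolysis lists were searched for ACGTG on both strands (RefSeq, GRCm38.p6). A window was on file for 19 of the 24 hypoxia genes and 22 of the 23 glycolysis genes, and 12 and 14 of these genes had the letters in at least 1 window (63.2% and 63.6%). Among all 27025 genes with a window the share was 21.8%, and among the 10698 of them that were tested here it was 28.7%. A match is a description of the letters, and the windows were not matched for base composition. The letters were not limited to genes that fell. Of the glycolysis genes that rose, *Pfkm* and *Slc16a1* had them in a window and *Eno3* lacked them. *Adm*, *Pfkp*, *Pfkl* and *Tpi1*, which fell, had none in their windows. The windows of 4 genes that fell are shown as examples of a match, 5′ to 3′ on the strand of the gene. *Egln3* and *Bnip3* had the largest falls of the hypoxia list, and *Ldha* and *Pgk1* catalyse steps of glycolysis and fell from high levels. Capitals mark ACGTG on either strand, and in the palindrome CACGTG both strands match.
*Egln3* promoter: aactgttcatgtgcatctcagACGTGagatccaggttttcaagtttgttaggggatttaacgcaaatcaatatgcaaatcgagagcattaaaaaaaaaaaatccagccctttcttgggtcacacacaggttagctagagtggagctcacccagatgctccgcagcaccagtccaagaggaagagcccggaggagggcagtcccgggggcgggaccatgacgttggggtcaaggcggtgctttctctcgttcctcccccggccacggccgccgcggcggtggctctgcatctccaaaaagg
*Bnip3* promoter: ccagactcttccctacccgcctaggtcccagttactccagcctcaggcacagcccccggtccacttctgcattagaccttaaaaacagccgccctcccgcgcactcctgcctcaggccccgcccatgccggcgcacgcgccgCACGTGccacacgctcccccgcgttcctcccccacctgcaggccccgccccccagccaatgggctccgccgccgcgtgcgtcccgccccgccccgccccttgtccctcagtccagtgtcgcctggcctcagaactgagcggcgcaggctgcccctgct
*Ldha* promoter: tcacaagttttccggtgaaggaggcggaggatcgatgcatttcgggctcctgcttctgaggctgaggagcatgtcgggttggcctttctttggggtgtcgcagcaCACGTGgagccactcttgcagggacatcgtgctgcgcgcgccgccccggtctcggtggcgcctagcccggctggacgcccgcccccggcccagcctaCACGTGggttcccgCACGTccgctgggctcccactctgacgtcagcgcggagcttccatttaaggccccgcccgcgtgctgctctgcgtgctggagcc
*Pgk1* promoter: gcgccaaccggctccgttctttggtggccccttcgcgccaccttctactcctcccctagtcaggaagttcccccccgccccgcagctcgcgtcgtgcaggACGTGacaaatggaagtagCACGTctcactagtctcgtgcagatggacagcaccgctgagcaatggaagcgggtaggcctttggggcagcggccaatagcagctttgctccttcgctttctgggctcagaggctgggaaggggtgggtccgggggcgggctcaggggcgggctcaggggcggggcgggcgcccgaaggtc
The window of *Egln3* is chr12:54203825-54204124 on the minus strand, that of *Bnip3* chr7:138909457-138909756 on the minus strand, that of *Ldha* chr7:46845554-46845853 on the plus strand and that of *Pgk1* chrX:106186850-106187149 on the plus strand. The window of *Ldha* has the letters at 3 separate places, of which a pair are CACGTG, and that of *Pgk1* has them at 2. All 4 genes fell by a log2 fold change of more than 1.9.

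Targets of LIF and STAT3 and the immediate early genes fell as a group. *Socs3*, the feedback inhibitor of LIF signalling, went from 166, 171 and 163 CPM to 16.6, 20.5 and 19.1 CPM (-3.09 ± 0.095, adjusted p = 1.3e-14), and *Bcl3*, which encodes a partner of NF-κB, from 77.1, 76.3 and 69 CPM to 5.79, 7.5 and 5.5 CPM (-3.38 ± 0.13, adjusted p = 2e-13). Of 16 tested members of the LIF list 10 fell and 4 rose, with a median of -0.53. *Stat3* itself fell by a log2 fold change of 0.84 and *Klf4* by 0.87. The members that rose were *Myc*, *Gbx2*, *Lifr* and *Pim1*. *Pim1* (0.20 ± 0.076) lost its call without replicate 2 at 24 h (limma, adjusted p = 0.21) and without replicate 1 or 3 at 0 h (0.072 and 0.087). *Gbx2*, a homeobox gene of naïve cells, rose from 21.1, 19.9 and 20.05 CPM to 41.6, 54.1 and 47.3 CPM (1.18 ± 0.11).

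Immediate early genes, which serum and growth factors switch on within minutes, were lower after 24 h in serum than in 2i/LIF. Of 23 members 18 fell and 3 rose. *Fos* was at 109, 99 and 101 CPM at 0 h and 4.83, 4.01 and 5.41 CPM at 24 h (-4.18 ± 0.11, adjusted p = 2.2e-15), and *Egr1* at 211, 218 and 209 CPM and 15.01, 12.8 and 13.6 CPM (-3.86 ± 0.088, adjusted p = 3e-16). *Fosb* (-3.44 ± 0.14), *Ier3* (-2.42 ± 0.096), *Junb* (-1.92 ± 0.13) and *Jun* (-1.52 ± 0.08) fell with them. *Myc* rose, from 39.4, 38 and 39.7 CPM to 155, 137 and 151 CPM (1.89 ± 0.06, adjusted p = 1.8e-14). The other members that rose were *Atf3* (0.61 ± 0.12) and *Srf* (0.32 ± 0.11), which lost its call without replicate 1 at 0 h or replicate 3 at 24 h (adjusted p = 0.051 and 0.085).

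**Figure D2:**
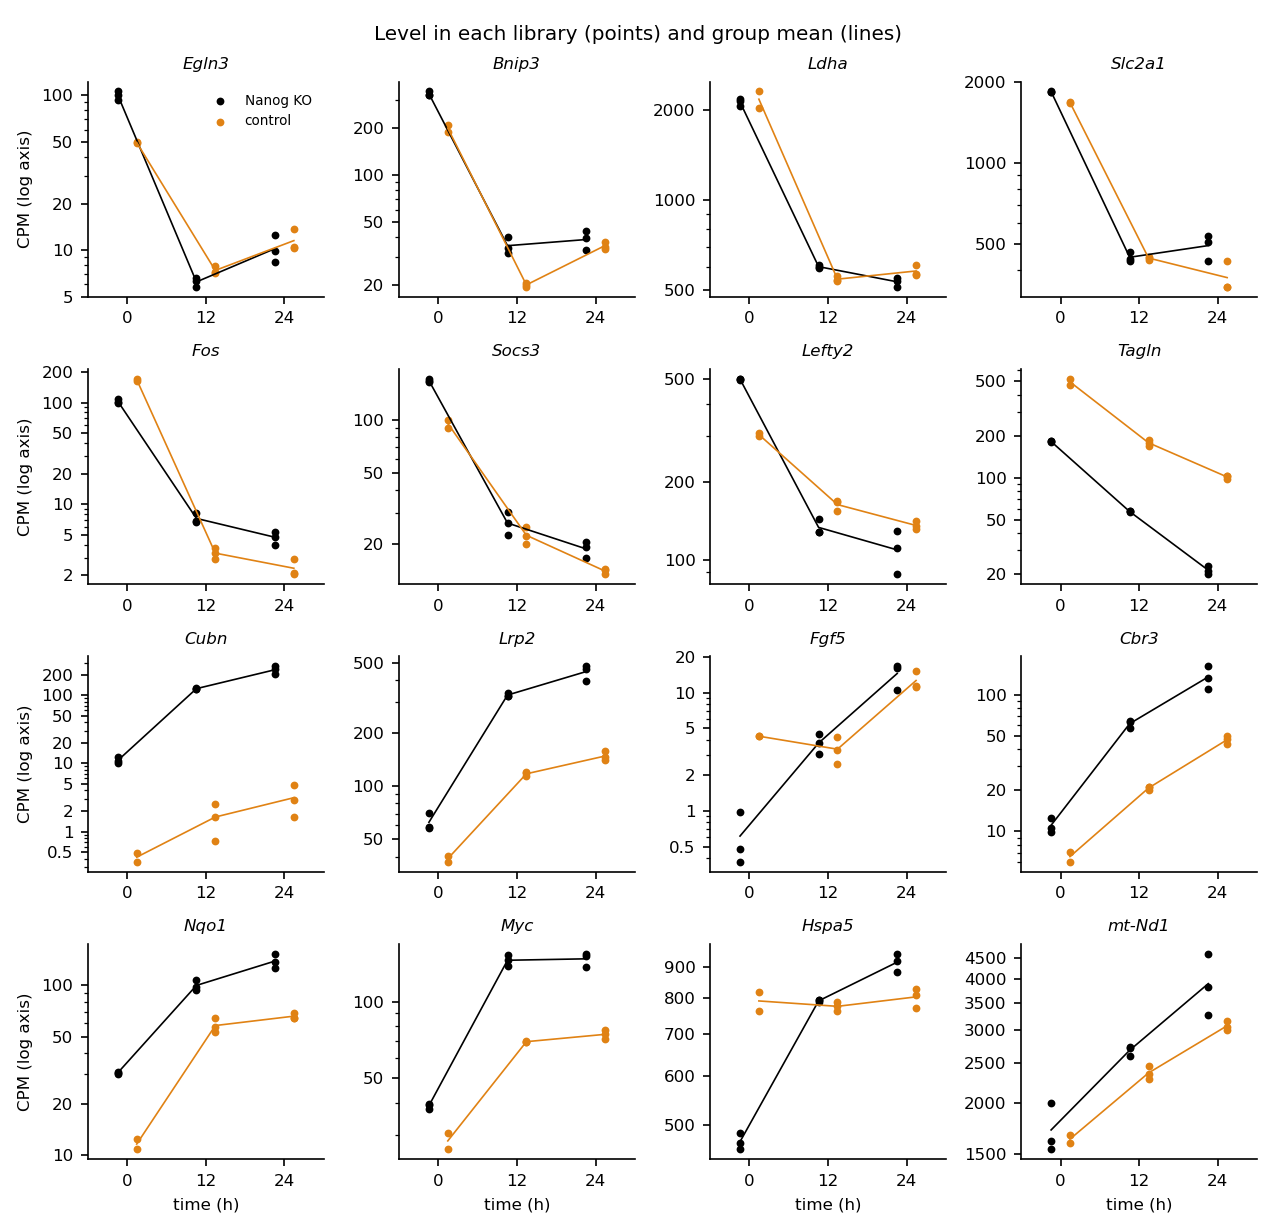
The level of 16 genes in each library is plotted in CPM on a log axis against time in h, for *Nanog* KO (black) and control (orange) libraries, with lines through the group means and the genotypes set slightly apart in time for clarity. *Egln3*, *Bnip3*, *Ldha*, *Slc2a1*, *Fos*, *Socs3*, *Lefty2* and *Tagln* are lower in every *Nanog* KO library at 24 h than at 0 h, and the other 8 genes are higher.

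Genes of contractile actin and of fibroblasts also fell. Of 19 targets of the actin-sensing factor SRF 18 fell, with a median of -0.91. *Tagln*, which encodes transgelin, was at 184, 185 and 182 CPM at 0 h, 57.2, 57.4 and 56.6 CPM at 12 h and 23.2, 21.2 and 20.01 CPM at 24 h (-3.04 ± 0.055, adjusted p = 1.9e-17). *Acta2*, smooth muscle actin, went from 92.5, 105 and 101 CPM to 19.1, 16.8 and 14.5 CPM (-2.501 ± 0.076). Of 32 tested genes typical of fibroblasts 29 fell, with a median of -1.17. The lists share at least *Tagln*, which is counted in both. The collagen gene *Col1a1* went from 403, 462 and 445 CPM to 115, 91.2 and 118 CPM (-2.01 ± 0.11, adjusted p = 5.5e-11) and *Col3a1* from 167, 182 and 188 CPM to 38.8, 30.6 and 51.3 CPM (-2.16 ± 0.12). *Thbs1* (-2.25 ± 0.09), which encodes a matrix protein, fell to a like extent.

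Feeder fibroblasts, on which the cultures started, are known to express genes of both lists. The 5 defining feeder markers (*Col1a1*, *Col1a2*, *Col3a1*, *Thy1* and *Postn*) all fell, and none was at 0 in any library. Their summed level was 792 to 894 CPM at 0 h, 457 to 598 CPM at 12 h and 188 to 258 CPM at 24 h. In the control it was 939.5 to 1083 CPM at 0 h and 565 to 658 CPM at 24 h. In RNA from a whole culture, fewer cells of a type and less RNA per cell cannot be told apart. The part of feeder RNA in the fall of the actin genes, which both cell types express, was not tested.

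**Figure D3:**
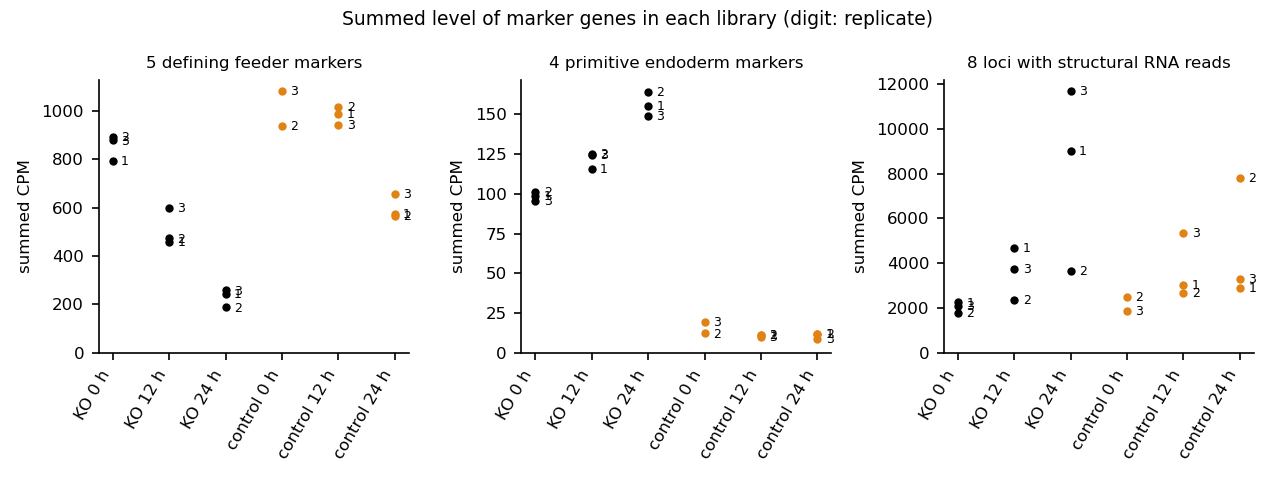
The summed CPM of 5 defining feeder markers (left), 4 primitive endoderm markers (middle) and 8 loci taken to carry structural RNAs (right) is plotted for each of the 17 libraries, with the replicate as a digit. In *Nanog* KO cells the feeder markers are lower and the endoderm markers higher in each library at 24 h than in each at 0 h, and replicate 2 at 24 h is the lowest of its group for the 8 loci.

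Naïve pluripotency genes fell to a smaller extent, and not all of them did so. Of 20 members 15 fell and 4 rose, with a median of -0.71. *Prdm14*, a repressor of differentiation genes, fell from 6.04, 8.97 and 7.44 CPM to 2.11, 1.12 and 1.23 CPM (-1.78 ± 0.14, adjusted p = 7.9e-09). *Klf2* fell by a log2 fold change of 1.004, *Nr5a2* by 1.22, *Klf5* by 0.99 and *Tfcp2l1* by 0.70. The residual *Nanog* reads fell with them (-1.14 ± 0.081, adjusted p = 1.3e-09). *Esrrb*, a central factor of the naïve network, did not pass the test, with 216, 204 and 208 CPM at 0 h and 217, 184 and 203 CPM at 24 h (-0.062 ± 0.054, adjusted p = 0.34). *Nr0b1* rose from 43.9, 41 and 42.1 CPM to 118, 93.5 and 129 CPM (1.39 ± 0.085).

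The Nodal pathway, which keeps the epiblast pluripotent and patterns it, had 10 members that fell and 3 that rose among 15 (10 and 1 without replicate 1 at 24 h). *Lefty2* and *Lefty1* encode inhibitors that Nodal itself induces. *Lefty2* was at 496, 500.4 and 499 CPM at 0 h and 111, 129.5 and 88.2 CPM at 24 h (-2.19 ± 0.09, adjusted p = 5.8e-13), and *Lefty1* fell from 242, 249 and 229 CPM to 74.3, 109.8 and 64.4 CPM (-1.56 ± 0.13). The co-receptor *Tdgf1* (-1.298 ± 0.05) was lower too, while the ligand *Nodal* itself fell by a log2 fold change of only 0.29. Of 18 genes of trophoblast and of simple epithelial keratins 12 fell and 1 rose, among them *Krt19* (-2.12 ± 0.062), *Krt18* (-1.14 ± 0.068) and *Tfap2c* (-1.01 ± 0.076). Of the 4 genes taken to define trophoblast, *Eomes* (-1.09) and *Gata3* fell. The other members, *Cdx2* and *Elf5*, did not pass the test, at a mean of 4.06 and 0.198 CPM at 0 h.

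Most genes of sterol synthesis fell. Of 25 members 20 fell and 1 rose, with a median of -0.47. *Msmo1*, a sterol oxidase, was at 131, 131 and 130.2 CPM at 0 h, 39.2, 39.7 and 36.8 CPM at 12 h and 71.2, 67 and 57.9 CPM at 24 h (-0.998 ± 0.072, adjusted p = 1.5e-09). *Hmgcs1*, an early enzyme of the mevalonate pathway (-0.82 ± 0.084), had the same order of levels, lowest at 12 h. Fatty acid synthesis was divided, with 7 of 14 members that fell and 4 that rose. *Scd2*, a desaturase, fell (-0.81 ± 0.083) and *Fasn*, the fatty acid synthase, rose from 268, 264 and 278 CPM to 587, 543 and 454 CPM (0.96 ± 0.08).

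Among the genes for the translation machinery, those for the ribosome itself and those for its assembly moved in opposite directions. Of 78 genes for cytosolic ribosomal proteins 57 fell and 1, *Rpl5*, rose (0.46 ± 0.055), with a median of -0.26, which is small and was -0.15, with 39 that fell and 2 that rose, under quantile scaling. *Rpl10* fell most (-0.91 ± 0.15). *Eef1a1*, the elongation factor that brings aminoacyl-tRNA to the ribosome, lost more CPM than any other tested gene, from 14168, 14092 and 13710 CPM to 10272, 10537 and 10093 CPM (-0.44 ± 0.064, adjusted p = 1.1e-05), and with quantile scaling the fall did not pass the test (adjusted p = 0.15). Ribosomal protein genes have many processed pseudogenes, so that reads may be divided between copies. The pseudogene *Rps16-ps2* was at 0, 0 and 0.35 CPM at 0 h and 90.3, 73.9 and 56.1 CPM at 24 h, a fitted log2 difference of 6.05 ± 0.80 that depends on the 1 CPM added, and at 12 h it was at 13.3, 40.8 and 0 CPM. *Rps16* itself fell by a log2 fold change of 0.53.

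Of 25 genes of ribosome biogenesis 22 rose, with a median of 0.36. *Rrp9* (0.86 ± 0.11) and *Bop1* (0.83 ± 0.071), which act in the processing of ribosomal RNA, rose most. In the MYC network 8 of 12 members rose and 1, the antagonist *Mxi1*, fell (-0.63 ± 0.078). Of 11 genes of polyamine synthesis 7 rose, led by spermidine synthase *Srm*, which went from 146, 141 and 136 CPM to 298, 282 and 321 CPM (1.08 ± 0.072). The proteasome had 16 of 31 subunits that rose and 2 that fell, with a median of 0.17.

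Genes for oxidative phosphorylation divided by genome. Of 75 nuclear genes for subunits of the respiratory chain 40 fell and 3 rose, with a median of -0.17 (-0.27, with 49 that fell and 1 that rose, without replicate 3 at 24 h, and 29 that fell without replicate 1 or 2 at 24 h), while 12 of 13 mitochondrially encoded messengers rose, with a median of 0.71. *mt-Nd1*, a subunit of complex I, went from 1542, 1619 and 1992 CPM to 4603, 3261 and 3808 CPM (1.17 ± 0.098, adjusted p = 1.2e-08), and *mt-Co1*, a subunit of complex IV, from 6224, 6524 and 7958 CPM to 11960, 8919.5 and 8982 CPM (0.52 ± 0.10, adjusted p = 0.00022). *mt-Co2* did not pass the test (0.52 ± 0.23, adjusted p = 0.062), but did so without replicate 3 at 0 h or replicate 2 at 24 h (0.0053 and 0.0065).

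Reads at loci taken to carry structural RNAs, which a library of polyadenylated RNA should largely lack, moved with time as well. They were looked at after the values had been seen, in 8 loci (*mt-Rnr1*, *mt-Rnr2*, *Rn7sk*, *Rmrp*, *Rpph1*, *Mir6240*, *Lars2* and *Yam1*), and 7 of the 8 rose. *Lars2*, which encodes a tRNA synthetase, and *Yam1*, a long noncoding RNA, are not structural RNAs, and they hold most of the summed level. Whether their reads come from structural RNAs was not tested. *mt-Rnr2* lost its call without replicate 1 at 24 h (adjusted p = 0.061) and *Rpph1* without replicate 1 or 3 at 0 h (0.052 and 0.054), while *Rmrp*, which did not pass, did so without replicate 3 of the control at 12 h (0.031). Their summed level was 1771 to 2254 CPM at 0 h and 3667 to 11681 CPM at 24 h. *Yam1* rose most in CPM of all genes, from 1474, 1076 and 1266 CPM to 6089.9, 2212 and 8349 CPM (1.94 ± 0.44, adjusted p = 0.0011), and *Lars2* went from 329.5, 238 and 242 CPM to 1685, 703 and 2211 CPM (2.37 ± 0.40). Replicate 2 was the lowest of the 3 at 24 h for both, and it was also the lowest for *mt-Nd1* and *mt-Co1*. The part of this difference between libraries in the rise of the mitochondrial messengers was not tested.

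*Cubn* had one of the steepest rises of any protein-coding gene, and the genes of its receptor complex, grouped after their values had been seen, rose as well. Cubilin and megalin (*Lrp2*) are large endocytic receptors of the visceral endoderm and kidney, amnionless (*Amn*) carries cubilin to the cell surface, and *Dab2* links the receptors to clathrin. *Cubn* was at 10.7, 10.1 and 12.3 CPM at 0 h, 126, 122 and 125 CPM at 12 h and 266, 239 and 202 CPM at 24 h (4.29 ± 0.23, adjusted p = 2.6e-11). *Lrp2* rose from 57.9, 59 and 70.6 CPM to 477, 461 and 395 CPM (2.81 ± 0.074, adjusted p = 1.9e-15). *Amn* rose from 5.05, 4.35 and 4.29 CPM to 24.4, 26.7 and 34.3 CPM (2.39 ± 0.17, adjusted p = 1.2e-09), and *Dab2* from 59.7, 64.8 and 63.6 CPM to 227, 227 and 202 CPM (1.79 ± 0.077, adjusted p = 1.2e-12). All 3 libraries at 24 h lay above all 3 at 0 h for each of the 4 genes. The annotated span of *Cubn* is chr2:13276338-13491813, minus strand and that of *Lrp2* is chr2:69424340-69586065, minus strand (GRCm38).

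The complex belongs to the list of primitive endoderm genes, of which 14 of 19 rose and 1, *Sparc*, fell (-0.26 ± 0.054). The transcription factor gene *Gata6* went from 43, 38.4 and 39.1 CPM to 59.9, 66 and 55.8 CPM (0.58 ± 0.16, adjusted p = 0.0044) and the growth factor receptor gene *Pdgfra* from 19.8, 20.9 and 21.8 CPM to 44.7, 47.7 and 40.5 CPM (1.05 ± 0.10), while *Gata4* did not pass the test (0.43 ± 0.20, adjusted p = 0.072), with an adjusted p of 0.0022 when the 6 libraries were fitted alone and of 0.034 without replicate 3 of the control at 24 h. *Cited1* (1.19 ± 0.14) rose, and so did the basement membrane genes *Lama1* (0.83 ± 0.086) and *Col4a1* (0.46 ± 0.063). The summed level of the 4 endoderm markers was 95.8 to 101 CPM at 0 h and 149 to 164 CPM at 24 h, against 12.3 to 19.5 CPM and 9.03 to 12.03 CPM in the control. More cells of this kind and more RNA per cell cannot be told apart here.

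Genes of the formative and primed epiblast rose, 15 of 20, and 1 fell, with a median of 0.96. *Pou3f1*, a POU domain factor of the epiblast and of neural cells, went from 8.28, 9.5 and 8.01 CPM to 107, 89 and 121 CPM (3.47 ± 0.14, adjusted p = 3.4e-13). *Fgf5* was at 0.989, 0.372 and 0.481 CPM at 0 h and 16.3, 10.5 and 16.8 CPM at 24 h (3.26 ± 0.19, adjusted p = 8.7e-11). The de novo DNA methyltransferase *Dnmt3a* rose from 142, 138 and 141 CPM to 846, 772 and 836 CPM (2.53 ± 0.055, adjusted p = 1.2e-16) and *Dnmt3b* from 312, 317 and 318 CPM to 760.4, 587 and 710.3 CPM (1.11 ± 0.076). *Sall2* (2.32 ± 0.077), *Sox3* (2.22 ± 0.18) and *Lef1* (1.96 ± 0.095) rose too. *Otx2*, a factor of the primed state, was already at 45.9, 44.5 and 43.1 CPM at 0 h and rose little (0.27 ± 0.085), a call lost without replicate 1 or 3 at 24 h (adjusted p = 0.057 and 0.07), and *Dnmt3l* did not pass the test, at 863, 847 and 837 CPM and 828, 868 and 929 CPM.

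Genes that ERK signalling induces or that dampen it rose in part, 9 of 17, with 3 that fell. The log2 fold changes of this list ran from -2.42, the value given above for *Ier3*, to 1.99, so that its largest change was a fall. The phosphatase *Dusp4* went from 45.6, 44 and 43.8 CPM to 186, 160.1 and 194 CPM (1.99 ± 0.075, adjusted p = 1.9e-13), *Dusp6* from 59.2, 59.3 and 58.4 CPM to 141, 146 and 141 CPM (1.26 ± 0.043) and the inhibitor *Spry4* from 64, 68 and 70.4 CPM to 161, 149.8 and 161 CPM (1.21 ± 0.059). *Etv5* and *Spry2*, which ERK also induces, did not pass the test (-0.044 ± 0.06 and -0.11 ± 0.047), though *Spry2* did without replicate 3 at 0 h (adjusted p = 0.026). Of 14 FGF ligands and receptors 7 rose and 3 fell. *Fgf4*, the ES cell ligand, rose from 36.6, 35.2 and 36.8 CPM to 171, 130 and 177 CPM (2.10 ± 0.08), and *Fgf15* (2.33 ± 0.15) and *Fgf3* (1.56 ± 0.16) rose from low levels. *Fgfr1* fell (-0.31 ± 0.062).

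Targets of NRF2, the factor of the response to oxidants, and genes for metal handling rose, 13 of 16, and 1 fell, with a median of 0.99. *Nqo1*, a quinone reductase, went from 31.1, 30.7 and 30.0 CPM to 137, 127 and 154 CPM (2.15 ± 0.078, adjusted p = 1.2e-13). Both subunits of the rate-limiting enzyme of glutathione synthesis rose, *Gclm* from 66.4, 69.5 and 73.1 CPM to 269, 233 and 273 CPM (1.87 ± 0.12) and *Gclc* from 40.1, 42 and 42.7 CPM to 122, 108 and 114 CPM (1.44 ± 0.064). The cystine transporter *Slc7a11* (1.87 ± 0.21) and heme oxygenase *Hmox1* (1.24 ± 0.072) rose too. *Cbr3*, a carbonyl reductase that was not on the list, was among the 12 largest rises, from 12.6, 10.7 and 9.98 CPM to 132, 110.4 and 162 CPM (3.48 ± 0.11, adjusted p = 1.7e-14). The metallothioneins *Mt1* (-0.08 ± 0.088) and *Mt2* (-0.12 ± 0.07) did not pass the test with all libraries and were lower without replicate 3 at 24 h (adjusted p = 0.0025 and 0.0005), and the ferritin chains moved apart, with *Fth1* rising (1.05 ± 0.058) and *Ftl1* falling (-1.0 ± 0.17). Of 13 genes of this list with a promoter window 6 had the letters TGACNNNGC, the core of the antioxidant response element, on either strand (46.2%), against 14% of all genes with a window and 16.9% of those tested. The letters did not follow the size of the rise. The windows of *Nqo1*, with the largest rise of the list, and of *Slc7a11* lacked them. That of *Mt2*, which did not pass the test, had them. The window of *Gclm*, which is chr3:122245307-122245606 on the plus strand, is shown as an example of a match, with these letters in capitals.
*Gclm* promoter: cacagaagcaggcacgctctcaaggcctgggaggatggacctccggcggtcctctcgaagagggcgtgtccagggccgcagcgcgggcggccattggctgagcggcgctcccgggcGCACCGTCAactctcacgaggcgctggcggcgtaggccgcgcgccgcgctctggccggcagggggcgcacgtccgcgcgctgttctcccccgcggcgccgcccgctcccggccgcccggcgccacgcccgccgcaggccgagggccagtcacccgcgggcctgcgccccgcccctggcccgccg

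Chaperones of the endoplasmic reticulum rose, with 12 of 16 genes of the unfolded protein response and 1, *Sel1l*, that fell (-0.18 ± 0.072) but lost its call without replicate 3 at 24 h (adjusted p = 0.30), without any one library of 0 h (0.077 to 0.089) and with edgeR (0.059). *Hspa5*, the chaperone BiP, went from 457, 468 and 485 CPM to 919, 945 and 882 CPM (0.96 ± 0.045, adjusted p = 3.8e-12), and *Manf* (0.88 ± 0.052) and *Calr* (0.61 ± 0.039) followed. The factor *Xbp1* did not pass the test (0.083 ± 0.051). Of 28 genes of the integrated stress response, which ATF4 drives, 15 fell and 9 rose. *Asns* (-0.78 ± 0.044) and *Psat1* (-0.69 ± 0.043) fell, while the amino acid transporters *Slc7a3* (1.28 ± 0.076) and *Slc7a11* rose.

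Genes of the cell cycle had small changes. Of 33 genes of DNA replication 16 rose and 4 fell, with a median of 0.12, and of 24 mitotic genes 12 fell and 6 rose, with a median of -0.10. Without replicate 3 at 0 h only 3 mitotic genes rose. The G1 cyclins moved apart. *Ccnd1* rose from 12.5, 14.2 and 13.2 CPM to 51.4, 38 and 45.1 CPM (1.67 ± 0.094) and *Ccne1* from 159, 167 and 154 CPM to 351, 332 and 329 CPM (1.07 ± 0.043), while *Ccnd2* fell (-1.25 ± 0.14). The inhibitors *Cdkn1a* (-0.64 ± 0.065) and *Cdkn1b* (-0.69 ± 0.055) fell.

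For some lists the counts are given as a description of the members. Over all genes 28.8% rose and 29.5% fell, and several of these lists lay near those shares. The Notch list had a larger share that rose, and the Hox list a smaller one. In the Notch pathway 8 of 16 rose and 4 fell, with the ligand *Dll1* rising from 2.86, 3.72 and 3.85 CPM to 23.7, 22.2 and 23.9 CPM (2.45 ± 0.10) and the receptor *Notch4* falling (-1.28 ± 0.12). Of 19 Wnt targets 6 rose and 4 fell. *Lef1*, *Ccnd1* and *Axin2* (0.90 ± 0.075) were among those that rose, while *Cdx1* went from 11.2, 11.8 and 11.1 CPM to 1.1, 3.29 and 1.23 CPM (-2.19 ± 0.20) and *Sp5* fell from 2.86, 1.43 and 2.23 CPM to 0, 0.263 and 0.379 CPM. Among 29 imprinted genes 10 rose and 10 fell, with *Mest* rising from 22.9, 20.7 and 22.8 CPM to 115, 115 and 111 CPM (2.31 ± 0.048) and *Plagl1*, a growth regulator, falling from 15.5, 14.97 and 14.2 CPM to 3.07, 4.41 and 3.03 CPM (-1.83 ± 0.11). Of 29 Polycomb genes 8 rose, led by *Phc1* (1.09 ± 0.046), and 11 fell, among them *Jarid2* (-0.87 ± 0.045). Of 29 Hox genes 0 rose, 8 fell and 21 did not pass the test, and 5 fell without replicate 3 at 0 h.

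**Figure D4:**
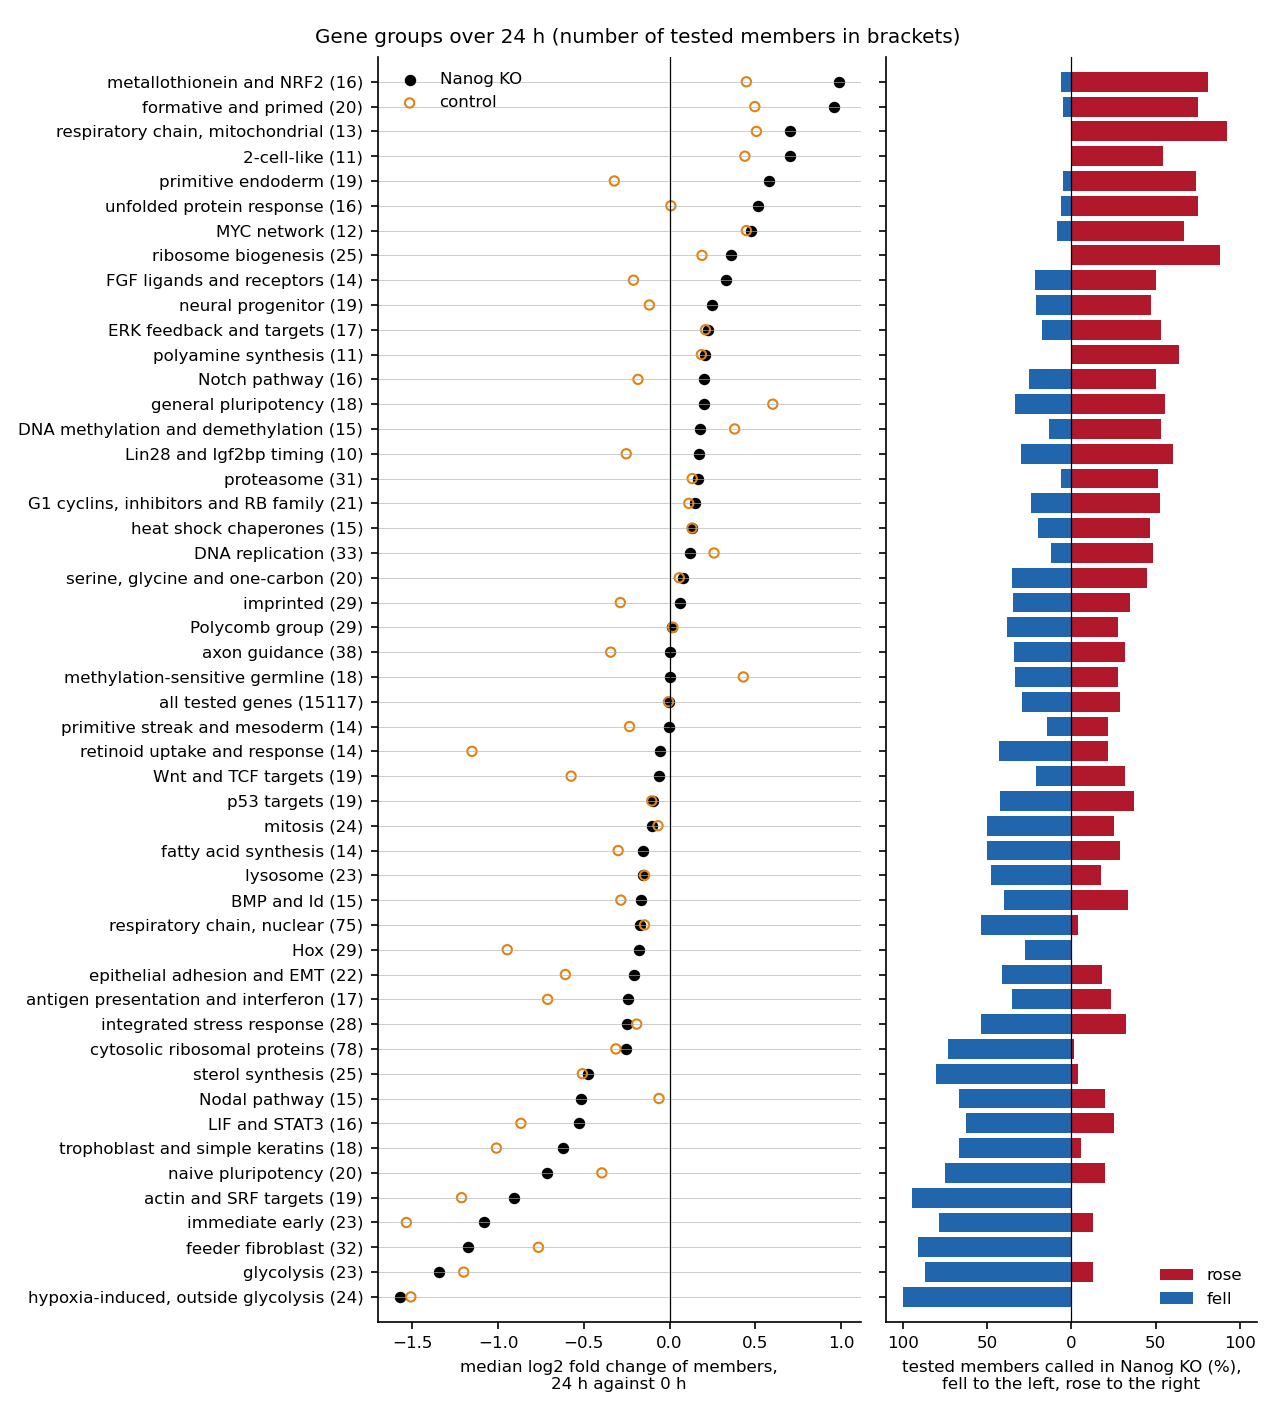
For 49 gene groups and for all tested genes, the left panel shows the median log2 fold change of the members at 24 h against 0 h in *Nanog* KO (filled) and control (open) cells, and the right panel the percentage of members that fell or rose in *Nanog* KO cells. The groups run from hypoxia-induced genes at -1.57 to metallothionein and NRF2 genes at 0.99, and the median of all tested genes is -0.0016.

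The remaining genes of large change share no single list. *Enpp2*, which encodes autotaxin, the enzyme that makes lysophosphatidic acid, had the largest rise among the protein-coding genes that the naming rule allows, from 0.833, 1.06 and 0.613 CPM to 60.3, 22 and 54.6 CPM (4.55 ± 0.25, adjusted p = 4.6e-11), with replicate 2 at 24 h well below the other libraries of that time. *Cd209c* (3.32 ± 0.10), a lectin gene, *Exoc3l* (2.998 ± 0.16), the zinc finger gene *Wt1* (2.95 ± 0.13), the protease gene *Capn3* (2.94 ± 0.1), *Tfec* (2.91 ± 0.15) and *Ccno* (2.91 ± 0.13) make up the rest of the 12 largest rises. *A2m*, a protease inhibitor, fell from 13.7, 12.7 and 12.9 CPM to 0.483, 0.526 and 0.569 CPM (-3.21 ± 0.15) and *Grin1*, an NMDA receptor subunit, from 33, 29.7 and 30.3 CPM to 2.94, 2.04 and 2.47 CPM (-3.21 ± 0.15). *Hsp90ab1* (-0.32 ± 0.055) was among the 6 genes that lost most CPM, beside *Eef1a1* and the glycolysis genes *Pkm*, *Slc2a3*, *Aldoa* and *Pgk1*. *Ptma* (0.55 ± 0.053) and *Gm10925*, an annotated pseudogene (0.90 ± 0.098), were among the 6 that gained most, with *Yam1*, *mt-Co1*, *mt-Nd1* and *mt-Cytb*.

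Many genes already differed at 12 h. Against 0 h, 3887 genes were higher (25.7%) and 3952 lower (26.1%) at 12 h, and against 12 h, 1984 were higher (13.1%) and 2164 lower (14.3%) at 24 h. These comparisons share libraries with that of 24 h against 0 h, so the levels are given side by side. *Egln3* had a mean of 100.3 CPM at 0 h, 6.23 at 12 h and 10.2 at 24 h, *Fos* of 103, 7.28 and 4.75, and *Myc* of 39.1, 145 and 147. For *Myc* the levels at 12 and 24 h did not pass the test of a difference (adjusted p = 0.86, limma), and for *Egln3* and *Fos* they differed little against the change from 0 h. *Col1a1*, at 437, 263 and 108 CPM, and *Fgf5*, at 0.614, 3.76 and 14.5 CPM, changed further between 12 and 24 h (adjusted p = 3.9e-07 and 4.3e-06). *Slc16a3* was lowest at 12 h, at 329, 53.3 and 156 CPM, and rose again by 24 h (adjusted p = 4.1e-08).

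To see how far the change was shared with the parental line, it was set against that of the control, which shares no library with it. Over all genes the log2 fold changes of the 2 lines had a Pearson r of 0.63, a description across genes, which are not independent. Of the genes that rose in *Nanog* KO cells 56.3% rose in the control, which is 62.1% of the genes that rose there, and of those that fell 60.4% fell in the control, which is 61.9% of the falls there. Of all tested genes 26.1% rose and 28.7% fell in the control. In opposite directions, 338 genes rose in *Nanog* KO and fell in control cells and 262 did the reverse. In the test of the difference itself, 2346 genes (15.5%) changed more positively in *Nanog* KO than in control cells and 2158 (14.3%) more negatively, 29.8% in all.

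The fall of the metabolic genes was also seen in the control. For the hypoxia genes the control median was -1.51 and for glycolysis it was -1.20, and the difference between the lines passed the test for 6 hypoxia genes in the positive and 11 in the negative direction of 24, and for 5 and 3 of 23 glycolysis genes. For *Ldha* the difference was -0.09 ± 0.075 (adjusted p = 0.4). *Egln3* fell more in *Nanog* KO cells, by a difference of -1.16 ± 0.17 (adjusted p = 6.6e-05) and was at 49.1 and 50.2 CPM in the control at 0 h. For 15 of 32 feeder genes the change was more negative than in the control and for 1 more positive. *Col3a1* was at 169 and 174 CPM at 0 h and 149.6, 139 and 146 CPM at 24 h in the control, a difference of -1.91 ± 0.18 (adjusted p = 3.1e-07).

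Primitive endoderm genes differed between the lines. For 15 of the 19 the change was more positive in *Nanog* KO cells by the test of the difference, and the control median was -0.32. The rise of the cubilin complex (*Cubn*, *Lrp2*, *Amn* and *Dab2*) was in part shared with the control. There the 4 genes summed to 49.3 to 52.8 CPM at 0 h and 156 to 176 CPM at 24 h, and 2 of the 4 rose. In *Nanog* KO cells they summed to 133 to 151 CPM and 833 to 994 CPM, and the change was more positive for all 4. *Cubn* rose from 0.482 and 0.359 CPM to 2.94, 4.84 and 1.61 CPM in the control, a difference of 2.83 ± 0.34 (adjusted p = 7.2e-06), and *Dab2*, at 11.1 and 10.5 CPM and 10.4, 12.1 and 13.2 CPM there, differed by 1.66 ± 0.11 (adjusted p = 1e-08). *Cited1* fell in the control, from 18.7 and 12.9 CPM to 3.65, 2.67 and 2.86 CPM, and differed by 3.22 ± 0.22 (adjusted p = 8.6e-09). The chaperones of the endoplasmic reticulum differed as well, with a more positive change in *Nanog* KO cells for 10 of 16 genes. *Hspa5* was at 820.2 and 765 CPM in the control at 0 h and 773, 812 and 829 CPM at 24 h, so that the *Nanog* KO cells started lower and ended above (difference 0.94 ± 0.067, adjusted p = 1.4e-08).

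Some genes that rose in the control were already high in *Nanog* KO cells at 0 h. *Otx2* went from 6.89 and 7.34 CPM to 57.3, 53.6 and 53.8 CPM in the control, a difference of -2.51 ± 0.13 (adjusted p = 2.5e-10), and *Dnmt3l* from 90.9 and 87.7 CPM to 477, 407 and 375 CPM, a difference of -2.17 ± 0.099 (adjusted p = 1.4e-10). *Aire*, whose annotated span overlaps that of *Dnmt3l* on chromosome 10, fell in *Nanog* KO cells from 92.3, 102 and 111 CPM to 16.7, 20.7 and 17.9 CPM and was at 13.99 and 16.7 CPM and 18.6, 15.6 and 14.2 CPM in the control, a difference of -2.47 ± 0.16 (adjusted p = 4.6e-09). Reads in the overlap of these 2 genes cannot be told apart. *Tdgf1* started at 902, 909.7 and 916 CPM in *Nanog* KO cells against 349.9 and 331 CPM in the control, and the levels at 24 h were 367, 388 and 353 CPM and 309, 346 and 324 CPM (difference -1.24 ± 0.075, adjusted p = 2.2e-09). In the other direction, *Sox3* was at 1.56, 0.955 and 0.875 CPM in the knockout at 0 h, against 11.4 and 14.04 CPM in the control, and at 8.25, 7.43 and 11.2 CPM and 10.9, 7.73 and 9.58 CPM at 24 h (difference 2.63 ± 0.27, adjusted p = 1.2e-06).

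**Figure D5:**
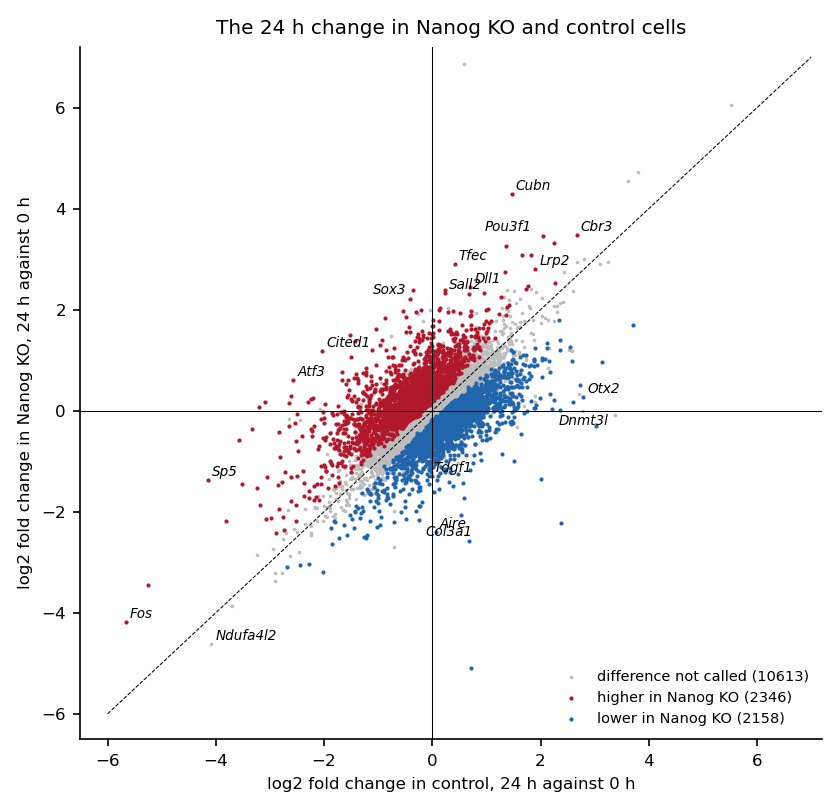
Each point is 1 tested gene, with its log2 fold change over 24 h in control cells on the horizontal axis and in *Nanog* KO cells on the vertical axis, and the dashed line marks equal change. The 2346 genes with a more positive change in *Nanog* KO cells are red, with *Cubn* at the top, and the 2158 with a more negative change are blue, with *Aire* and *Otx2* among them.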

How the data were processed

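Polyadenylated RNA of ES cells was sequenced as single reads on an Illumina HiSeq instrument. Per the labels, reads were trimmed with cutadapt 1.3 and counted with RSEM 1.2.3 on GRCm38. The study's methods name a different RSEM version. The deposited values are a signal, expression scaled by the authors to CPM with edgeR's TMM factors. Dividing by the value of a single read in that library turned 100% of the values into whole numbers (tolerance 0.001), which gave back reads and depth. The study's methods also name ComBat for batch correction, and values that divide into whole reads show no sign of it. The sample titles name no batch, and the main model has no batch term. Any batch effect is therefore left in the changes and their errors.

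Genes that reached 1 CPM in 3 or more of the 17 libraries were fitted with limma 3.58.1 (R 4.3.3, with trend) on log2(CPM + 1), with 1 coefficient per group over all 17 libraries. The test is two-sided, and p-values were adjusted by Benjamini-Hochberg across 15117 genes, with a threshold of 0.05. Errors are standard errors of log2 fold changes. Gene spans come from GENCODE M21 and promoter windows from RefSeq. Recovered reads were also tested with edgeR 4.0.16 and DESeq2 1.42.0, and the fit was checked on simulated data. Named genes are the 12 largest rises and falls by log2 fold change with a mean of at least 5 CPM in 1 group, the 6 largest by CPM, up to 4 called members per list with the largest changes, and single members that moved the other way or did not pass. Other genes were named after their values were seen, and some genes are not reported here. The gene lists and this comparison were chosen with earlier results of these data known. The 3 replicate numbers did not pair the libraries. A gene at fewer than 3 reads cannot be told from background, and depth, which covers counting error only, limits low genes most in the library of 10876687 reads.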

Additional observations from a re-analysis of the deposited data

Results flagged for a closer look

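For 46 of the genes named here the change over 24 h differed between *Nanog* KO and control cells by at least 1 on the log2 scale in limma's test of the difference itself (adjusted p under 0.05), 34 in the positive and 12 in the negative direction. Each value is the log2 change of the *Nanog* KO line less the log2 change of the control line, over 3 libraries a group except 2 for the control at 0 h. The control at 0 h has fewest libraries, and any deviation of it enters every difference. Among genes of primitive endoderm and of the cubilin complex it was 2.83 for *Cubn*, 2.17 for *Amn*, 1.66 for *Dab2*, 3.22 for *Cited1*, 1.5 for *Pdgfra* and 1.15 for *Lama1*. Among genes of the formative epiblast and of neural cells it was 2.63 for *Sox3*, 2.09 for *Sall2*, 1.90 for *Fgf5*, 1.67 for *Lef1*, 1.42 for *Pou3f1*, 1.37 for *Fgf15* and 1.12 for *Tubb3*. Targets of Wnt, BMP and Notch signalling and related genes gave 2.77 for *Sp5*, 1.94 for *Axin2*, 1.89 for *Cdx2*, 1.86 for *Msx1*, 1.75 for *Dll1*, 1.68 for *Ccnd1* and 1.63 for *Cdx1*. Immediate early, LIF and stress genes gave 3.18 for *Atf3*, 1.81 for *Fosb*, 1.48 for *Fos*, 1.36 for *Pim1*, 1.21 for *Gbx2*, 1.96 for *Hspa1b*, 1.3 for *Hspa1a* and 1.16 for *Slc7a11*. Other genes with a positive difference were 2.64 for *Sema6a*, 2.5 for *Tfec*, 2.05 for *Fgf3*, 1.63 for *Mest*, 1.57 for *Eno3* and 1.06 for *Cd209c*. A negative difference was found for genes already high in *Nanog* KO cells at 0 h, -2.51 for *Otx2*, -2.47 for *Aire*, -2.17 for *Dnmt3l* and -1.24 for *Tdgf1*. Fibroblast and contractile genes gave -1.91 for *Col3a1*, -1.65 for *Col1a2* and -1.24 for *Acta2*. The remaining negative differences were -1.41 for *Nrp2*, -1.25 for *Pfkp*, -1.16 for *Egln3*, -1.07 for *Gata3* and -1.03 for *Lefty2*. For *Fos* and *Fosb* the positive sign means a smaller fall than in the control, and for *Cdx1* and *Sp5* likewise. *Sp5* was already low in *Nanog* KO cells at 0 h, which limits how far it could fall on the scale of log2(CPM + 1).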

How the results depend on the processing

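The comparison was repeated under 28 alternatives, of which 17 each left out 1 library. The number of genes that rose ran from 3957 to 4442 and the number that fell from 4050 to 4545 when 1 library was left out, and the numbers with a 2-fold change from 495 to 534 and from 493 to 534. Under the 11 other alternatives the numbers that rose and fell stayed within 1.5 times. The 2-fold counts did not. They were 975 up and 786 down with 0.1 CPM added, 1053 and 803 with edgeR, 1036 and 790 with DESeq2, and 290 up with a mean of at least 5 CPM required. The test of the difference from the control called 3800 to 4746 genes when 1 library was left out. Between 46.9 and 50.4% of calls were rises under all alternatives.

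The replicate number as a replicate block gave 4262 rises and 4353 falls, 507 and 501 of them 2-fold, and 4117 differences from the control. Deviations of same-numbered libraries correlated at -0.033, -0.015 and -0.12, so the numbers were not taken as pairs.

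Of 278 genes followed across the alternatives, 264 passed the test and 11 of these lost the call under at least 1 alternative, none with a change of sign. List majorities changed in the imprinted (13 of 28 alternatives), axon guidance (9), primitive streak (8), p53 (5), BMP (4), germline (1), one-carbon (1) and ES cell marker (1) lists, and the causes were not tested. Depth limits genes near the floor, which are many of those with a 2-fold change (145 of 504 rises and 87 of 500 falls had a mean under 5 CPM in both groups).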

Other observations

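Counts in this section describe the members of each list, and several lie near the shares over all genes, of which 28.8% rose and 29.5% fell. General pluripotency genes, which naïve and primed cells share, moved both ways, with 10 of 18 that rose and 6 that fell. *Foxd3* rose from 14.4, 16 and 18 CPM to 41.6, 37.8 and 54.9 CPM (1.40 ± 0.16, limma, adjusted p = 5.4e-07), while *Pou5f1* (0.27 ± 0.085), which lost its call without replicate 3 at 24 h (adjusted p = 0.075), and *Sox2* (-0.20 ± 0.041) had small changes. Of 15 genes that act on DNA methylation 8 rose and 2 fell, with the demethylase gene *Tet1* at 0.72 ± 0.084 and *Dnmt1* at -0.082 ± 0.051, which did not pass the test. Among 18 germline genes that methylation keeps silent 5 rose and 6 fell, 3 of them by 2-fold or more. For *Stra8* replicate 2 at 24 h was at 61.4 CPM and the others at 11.1 and 14.5 CPM. Its log2 fold change was -1.55 ± 0.35, and -2.28 without that library. Of 11 genes of the 2-cell-like state 6 rose, from levels such as 1.87, 1.96 and 1.4 CPM for *Zscan4d*, which reached 4.96, 3.75 and 7.3 CPM (1.17 ± 0.25). These genes have near-identical copies, so that reads may be divided between them.

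In the BMP pathway 5 of 15 genes rose and 6 fell, beside shares of 28.8% and 29.5% over all genes. The homeobox target *Msx1* rose from 1.35, 1.01 and 1.36 CPM to 8.73, 4.93 and 11.1 CPM (1.99 ± 0.22) and the ligand *Bmp4* fell from 22.3, 21.2 and 20.2 CPM to 12.03, 10.6 and 11.7 CPM (-0.84 ± 0.078). Among the lineage lists, 9 of 19 neural progenitor genes rose and 4 fell (6 and 1 without replicate 1 at 24 h, 8 and 1 without replicate 2 at 0 h, 8 and 2 without replicate 3 at 0 h), with the neuronal tubulin *Tubb3* at 1.56 ± 0.077 and *Nes*, the intermediate filament nestin, at -1.45 ± 0.087, and of 14 genes of primitive streak and mesoderm 3 rose and 2 fell, with the VEGF receptor *Kdr* at 1.23 ± 0.13 and *Eomes* at -1.09 ± 0.12. The retinoid list had 3 of 14 that rose and 6 that fell, led by the binding protein gene *Crabp1* (-1.76 ± 0.22). Of 38 axon guidance genes 12 rose and 13 fell, *Sema6a* most in one direction (1.61 ± 0.12) and the receptor *Nrp2* in the other (-1.91 ± 0.067). In the list for epithelial adhesion 9 of 22 fell and 4 rose, with desmoplakin *Dsp* falling from 108, 118 and 126 CPM to 37.7, 33.5 and 24.2 CPM (-1.87 ± 0.12) and *Cdh1*, E-cadherin, at -0.052 ± 0.055, which did not pass the test.

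The counts that follow stand beside shares over all genes of 28.8% that rose and 29.5% that fell. Of 20 genes of serine, glycine and one-carbon metabolism 9 rose and 7 fell, with *Cbs* rising from 9.01, 7.96 and 8.36 CPM to 24.4, 19.2 and 27.3 CPM (1.37 ± 0.097). Heat shock chaperones had 7 of 15 that rose and 3 that fell, led by *Hspa1a* (1.62 ± 0.20) and *Hspa1b* (1.55 ± 0.11), whose near-identical sequences share reads. Of 19 p53 targets 7 rose and 8 fell, of 21 genes of G1 11 rose and 5 fell, of 10 genes of the Lin28 and Igf2bp group 6 rose and 3 fell, of 23 lysosomal genes 4 rose and 11 fell, and of 17 genes of antigen presentation and interferon 4 rose, or 2 without replicate 3 at 24 h, and 6 fell, with *B2m* falling from 62.4, 64.8 and 60.4 CPM to 30.1, 31 and 31.9 CPM (-0.99 ± 0.068). The trophoblast markers *Cdx2*, *Eomes*, *Elf5* and *Gata3* summed to 33.6 to 36.3 CPM at 0 h and 18.9 to 21.2 CPM at 24 h. Of 3 blood markers 1 was tested, and it did not pass the test.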
